A study of Danio rerio with 56 samples.

Results

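A set of 100 transcripts was examined whose level in zebrafish embryos at 10 hours post fertilisation (hpf) differed with the mother's diet, whichever diet the father had eaten. They were chosen by measured levels in the 16 embryo libraries, from 57192 transcript rows. The level was x = log2(TPM + 0.1), where TPM is the share of a library's reads that a transcript takes after division by its length. Of the 57192 rows, 22431 had a mean of at least 1 TPM over the embryo libraries. In 3091 of these, x differed in the same direction and by at least 0.2 in both comparisons of mothers, namely BaP-fed mother minus control with control fathers and with BaP-fed fathers. The 100 rows with the largest absolute t statistic (unequal variances) between the 8 libraries with BaP-fed mothers and the 8 without were kept. There were 76 members higher and 24 lower with BaP-fed mothers. Because these values selected the members, every difference between embryos of BaP-fed and control mothers below is a description and cannot serve as a test. Where a fit of the embryos is given, the choice bears on its counts of members and nothing is read from them. Egg libraries took no part in the choice, so the eggs are where the mother's diet could be tested.

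All fish were of the 5D strain and were sexually mature, 120 days of age, when the study began. For 21 days they ate flakes that carried benzo[a]pyrene (BaP), at 25 µg per g of fish or 1250 µg per g of food, or flakes treated with acetone, the solvent, as control. Each diet had 20 fish in 5 tanks. The RNA libraries form 6 groups of 4, with eggs of control mothers (control eggs), eggs of mothers fed BaP (BaP eggs) and 10 hpf embryos of 4 crosses. In the crosses both parents were controls (Control 10hpf), the mother alone had eaten BaP (Cm.Bf.10hpf), the father alone had eaten BaP (Cf.Bm.10hpf), or both had (BaP 10hpf). The last label names no parent and was read as both parents BaP-fed, since the other 3 crosses carry labels of their own. The labels do not say how many eggs or embryos went into a library, nor which tank or spawning it came from. P-values therefore measure the spread between these libraries only, which may be technical.

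BaP is a polycyclic aromatic hydrocarbon formed in combustion; it binds the aryl hydrocarbon receptor, a transcription factor that switches on cytochrome P450 enzymes, and those enzymes turn BaP into products that bind DNA. A fish egg is loaded by its mother with RNA that directs the first divisions. The embryo's own genome is switched on in the blastula while much of the stored RNA is cleared, so that by the end of gastrulation, about the stage sampled here, RNA from the egg and RNA made by the embryo are both present. A difference with the mother's diet at this stage can thus lie in transcripts of either origin, and the levels in eggs show which members the egg already held.

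Library totals were 36548517 to 55044612 estimated counts in eggs and 26010776 to 38130629 in embryos, with 36133 to 38395 rows above 0 in a library. Transcripts enriched in eggs (3738 rows, defined on all 24 libraries) took 1.57% of the counts in replicate 2 of the embryos of 2 BaP-fed parents and 0.677% to 0.966% in the other 15 embryo libraries. Over all 22431 eligible rows the median of x was 0.12 higher with both parents BaP-fed than with the father alone on the TPM scale, and 0.02 lower (-0.02) as log2 CPM, counts divided by the library total, with TMM scaling, a correction for differences in RNA composition. The other comparison of mothers moved by less, from -0.01 to 0.01. All 100 members kept both directions on the CPM scale and 87 still met both size conditions. Had the rule been run on CPM, 63 of these members would have been chosen, and the 100 would have held 47 higher and 53 lower transcripts in place of 76 and 24. None of the row identifiers could be paired with a gene name, so roles and pathways of the members are not given and members are called by transcript identifier, rank or length.

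The selected differences were mostly modest in size. The members higher with BaP-fed mothers had a median x difference of 0.40 with control fathers and 0.65 with BaP-fed fathers. The members lower with BaP-fed mothers had medians of -0.48 and -0.52. On the CPM scale the same medians were 0.42 and 0.53 for the higher members and -0.46 and -0.66 for the lower ones. A difference of at least 1, which is 2-fold, was reached by 4 members with control fathers and by 20 with BaP-fed fathers. In bulk RNA of whole eggs or embryos, fewer cells of a type and less RNA per cell cannot be told apart.

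**Figure D1:**
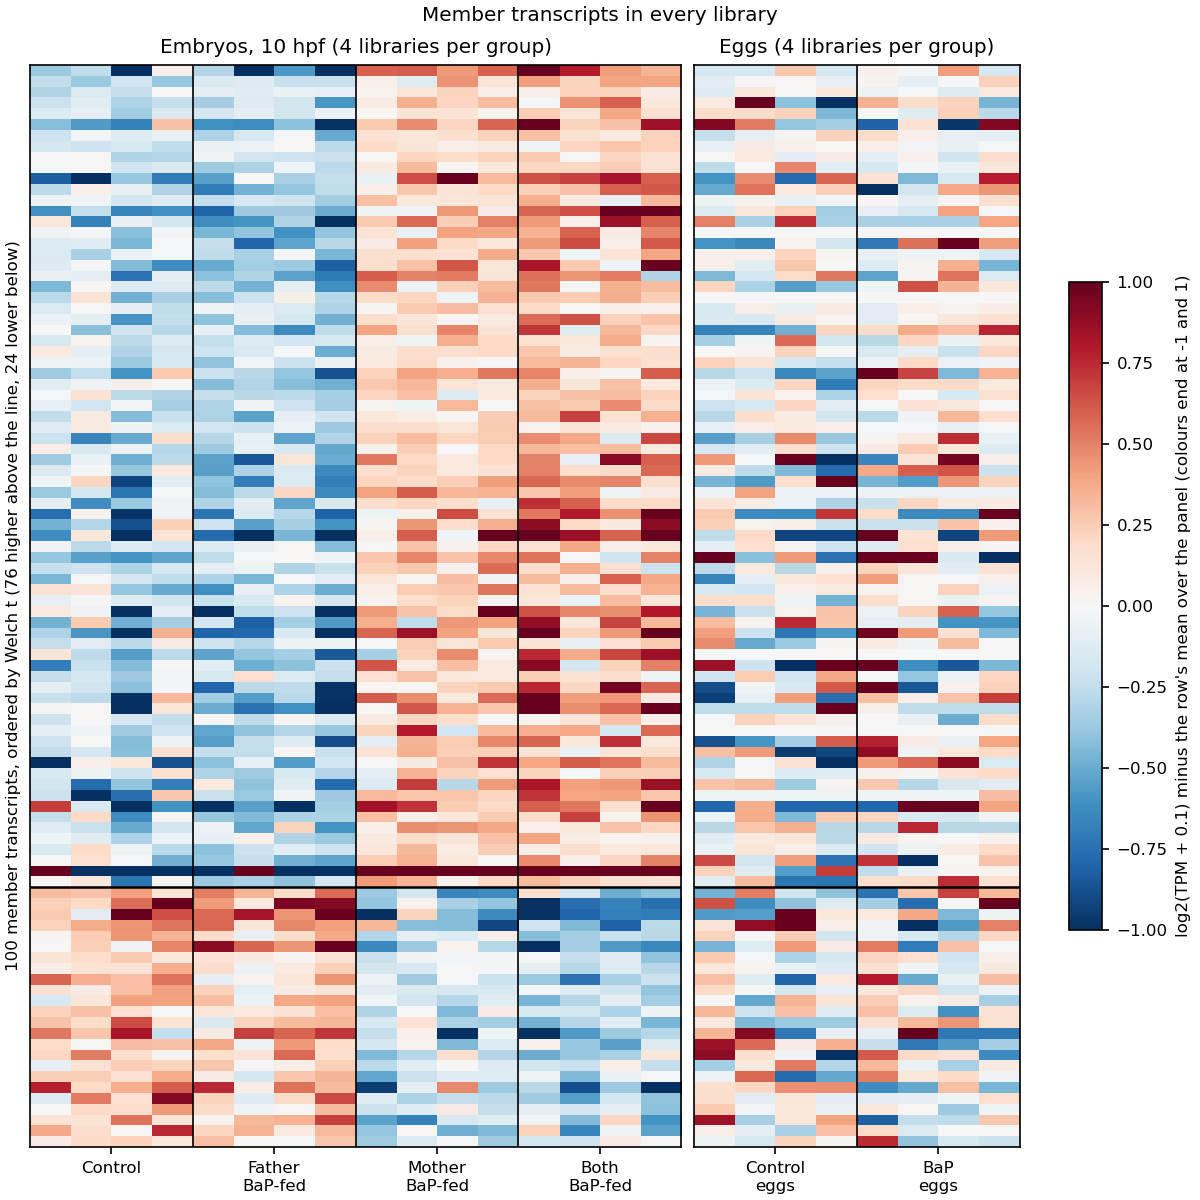
Level of each of the 100 members (rows) in each library (columns), as log2(TPM + 0.1) minus the row's mean over the 16 embryo libraries (left) or the 8 egg libraries (right), with colours ending at -1 and 1. The 76 higher members, above the line, are mostly blue in the control and father crosses and mostly red in the other crosses because they were chosen so. In replicate 2 of the controls, 22 of the 76 lie above their row's mean. The egg panel, which was not used in the choice, shows no such division.

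The member most clearly lower was ENSDART00000052322.5 (rank 1 of the 100, t -6.16, 2817 bases). Its level was 14.5, 14.3, 15.6 and 12.7 TPM in replicates 1 to 4 of the control embryos and 16.7, 14.8, 13.3 and 17.4 TPM with BaP-fed fathers. It was 9.09, 10.3, 7.36 and 7.51 TPM with BaP-fed mothers and 13.1, 10.5, 8.29 and 8.79 TPM with both parents BaP-fed. All 4 mother-only libraries lay below every library of control mothers, while 1 library of 2 BaP-fed parents, at 13.1 TPM, lay above the lowest control. In eggs it was near 0, at 0.0918 to 0.279 TPM in controls and 0.0589 to 0.327 TPM with BaP, so its embryo level was far above its egg level. ENSDART00000145652.3 (rank 3, t -5.97, 3360 bases) was 3.25, 3.16, 4.09 and 5.76 TPM in control embryos and 3.71, 2.93, 5.36 and 5.29 TPM with BaP-fed fathers. With BaP-fed mothers it was 2.08, 2.83, 2.17 and 2.06 TPM, and with both parents BaP-fed 1.17, 1.58, 1.69 and 1.59 TPM. The 8 libraries of BaP-fed mothers were all below the 8 others, and those of 2 BaP-fed parents were below those of mothers alone. Eggs held 0.187 to 0.585 TPM in controls and 0.160 to 1.24 TPM with BaP, ranges that overlap.

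On the higher side, ENSDART00000026635.7 (rank 2, t 6.04, 2710 bases) was 0.740, 0.812, 0.296 and 1.03 TPM in control embryos and 0.785, 0.423, 0.628 and 0.422 TPM with BaP-fed fathers. It was 1.54, 1.55, 1.36 and 1.54 TPM with BaP-fed mothers and 2.49, 1.78, 1.36 and 1.28 TPM with both parents BaP-fed. The libraries of BaP-fed mothers were all above the rest, and the x difference was 1.06 with control fathers and 1.45 with BaP-fed fathers. This is a scarce transcript, at 16 to 116 estimated counts in an embryo library, and in eggs it had at most 3 counts in a library. ENSDART00000135153.2 (rank 4, t 5.96, 5193 bases) was 2.23, 2.03, 2.30 and 2.02 TPM in control embryos and 2.40, 2.42, 2.27 and 2.26 TPM with BaP-fed fathers. With BaP-fed mothers it was 2.76, 2.43, 3.67 and 2.91 TPM, and with both parents BaP-fed 3.58, 3.12, 3.53 and 3.52 TPM. The groups did not overlap, although the lowest mother-only library and the highest father-only library were close together, at 2.43 and 2.42 TPM. Here the egg was the richer source, with 21.8 to 23.7 TPM in control eggs and 22.1 to 27.6 TPM in BaP eggs.

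**Figure D2:**
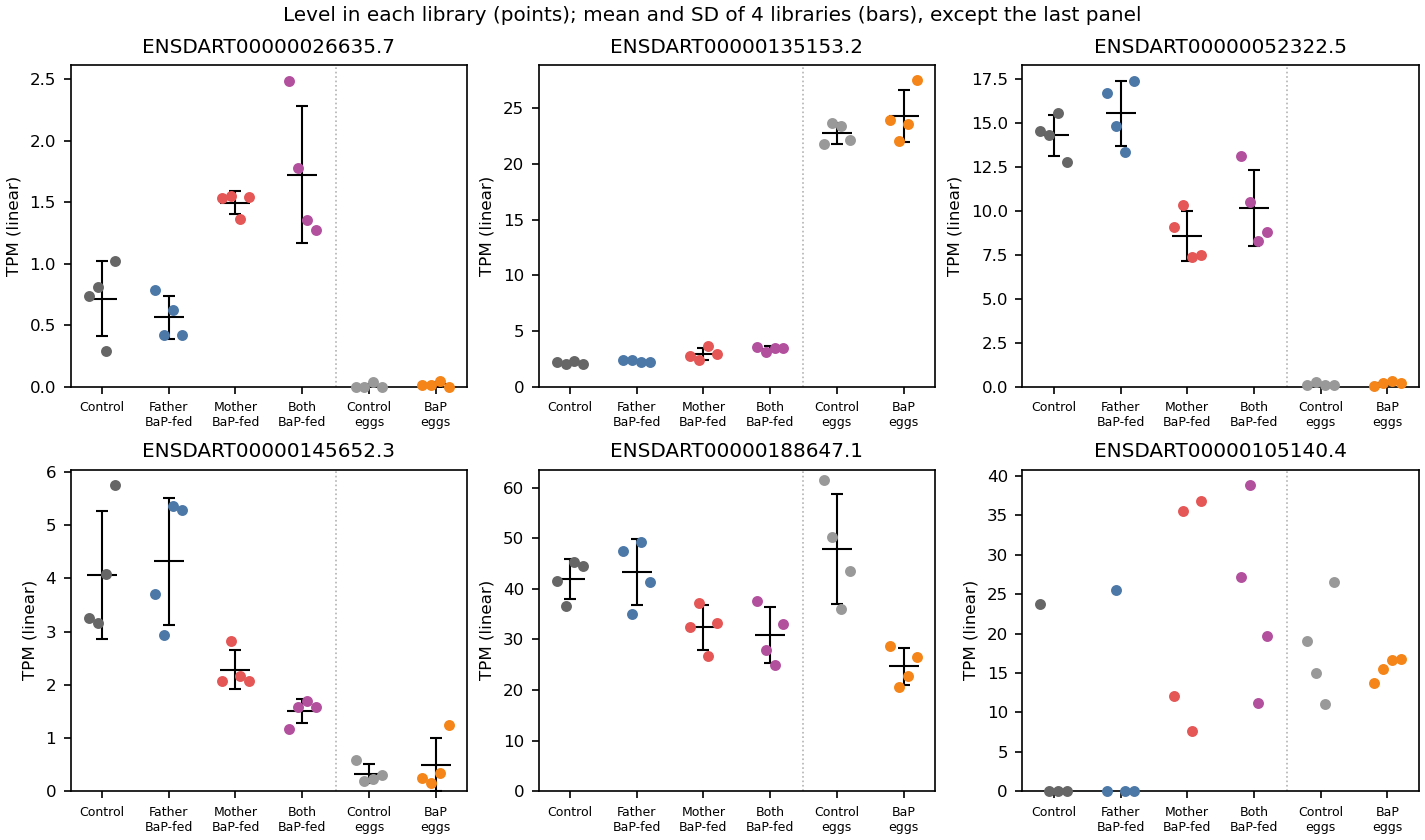
TPM on a linear axis in each of 4 libraries per group (points) for 6 members, with the mean and SD of the 4 libraries as bars, embryos to the left of the dotted line and eggs to the right; the last panel, ENSDART00000105140.4, has points only. ENSDART00000052322.5 and ENSDART00000145652.3 lie lower in embryos of BaP-fed mothers while their eggs lie under 2 TPM, and ENSDART00000188647.1 is lower in BaP eggs as well as in embryos of BaP-fed mothers.

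Separation of all 8 libraries of BaP-fed mothers from the 8 others was seen for 19 members, 17 higher and 2 lower, where 0.152% of the eligible rows showed it. The rule favours such rows, so nothing is read from this. At the edge of the choice, ENSDART00000075150.5 (rank 100) had a t of -4.23 with differences of -0.37 and -0.22, and the first row left out, ENSDART00000137643.3, had a t of 4.22 with differences of 0.59 and 0.80. The members therefore have no gap below them.

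ENSDART00000105140.4 (rank 97, 704 bases) was named after its values were seen, because its difference was the largest of the 100. In control embryos it was 23.8 TPM in replicate 1 and listed at 0 in replicates 2, 3 and 4, and with BaP-fed fathers it was 25.5 TPM in replicate 2 and listed at 0 in the other 3. With BaP-fed mothers it was 12.1, 35.6, 7.67 and 36.8 TPM, and with both parents BaP-fed 27.2, 38.9, 11.2 and 19.8 TPM. It was thus listed above 0 in all 8 libraries of BaP-fed mothers and in 2 of 8 others, where its level was like theirs. The size of its difference depended on the scale, at 5.68 as log2(TPM + 0.1), 3.25 as log2(TPM + 1) and 4.38 as log2 CPM with TMM scaling. Its estimated counts were not whole in every library. Its values, the listed 0 among them, can therefore rest on how reads shared between transcripts were divided, which was not tested. Every egg library held it, at 19.1, 14.99, 11.1 and 26.6 TPM in controls and 13.7, 15.6, 16.6 and 16.8 TPM with BaP. Its log2 fold change in eggs was -0.24 ± 0.29 (SE, n = 4 and 4, edgeR quasi-likelihood test, adjusted p = 1.00).

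The lower members included the most abundant ones. The 7 members with the highest mean embryo level were all lower with BaP-fed mothers, and the median embryo level was 17.7 TPM for the lower members, 5.36 TPM for the higher ones and 6.95 TPM for all eligible rows. The most abundant member (rank 40, 503 bases) was 1559 ± 162 TPM in control embryos and 1407 ± 134 TPM with BaP-fed fathers (SD, n = 4). It was 1197 ± 22.2 TPM with BaP-fed mothers and 1167 ± 125 TPM with both parents BaP-fed. Its libraries of BaP-fed mothers alone reached at most 1228 TPM, just below those of BaP-fed fathers, which began at 1231 TPM. The libraries of 2 BaP-fed parents reached 1301 TPM and overlapped those of BaP-fed fathers. Control and BaP eggs held 1124 ± 125 and 1152 ± 138 TPM, a difference smaller than the spread between replicates. The next (rank 47, 827 bases) was 874 ± 156 TPM in control embryos, 911 ± 127 TPM with BaP-fed fathers, 679 ± 50.7 TPM with BaP-fed mothers and 616 ± 66.2 TPM with both parents BaP-fed. The most abundant higher member (rank 68, 2488 bases) was 103 ± 11.7, 101.9 ± 8.36, 126 ± 10.5 and 123 ± 11.9 TPM in the same order, and its eggs averaged 0.748 TPM.

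Across the crosses, the libraries of each mother's diet lay together, as the choice requires. The median of the row-centred x over the 76 higher members was -0.38 to -0.09 in the 4 control libraries and -0.38 to -0.21 in those of BaP-fed fathers. It was 0.14 to 0.26 with BaP-fed mothers and 0.23 to 0.38 with both parents BaP-fed. Over the 24 lower members it was 0.19 to 0.37, 0.08 to 0.33, -0.28 to -0.13 and -0.37 to -0.19 in the same order. In 76 of the 100 members, embryos of 2 BaP-fed parents lay beyond those of BaP-fed mothers in the direction of the row's difference by mother's diet. The same held in 14404 of the 22431 eligible rows, where that direction need not lead away from control. In 79 members the difference between mothers was larger with BaP-fed fathers than with control fathers, where 14879 of the 22431 eligible rows had the larger difference there. Both counts are on the TPM scale, which carries the shift of 0.12 given above. In the TMM-scaled edgeR fit the difference between mothers was the larger with BaP-fed fathers in 66 of the 100 members. The share over all rows was not counted in that fit, so nothing about the members is read from this count.

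The father's diet with control mothers was no condition of the rule, but the t statistic favours rows whose father cross lies near control, so these values are also a description. The level with BaP-fed fathers was below control in 54 of the 76 higher members and 13 of the 24 lower members, where 64.6% of eligible rows were. The median x difference was -0.13 and -0.01 for these members and -0.08 for eligible rows. In 68 of 100 members it was under 0.2 in size, beside 12336 of the 22431 eligible rows. The rule likewise favours similar differences between mothers with either father, and so bears on the interaction of the parents' diets. In edgeR no member (0 of 100) was called, where 0.9% of 30894 rows were, and 8 members had an unadjusted p under 0.05, beside 3650 of the 30894 rows. Leaving out replicate 2 of the embryos of 2 BaP-fed parents or replicate 3 of the BaP-fed fathers gave 1 member, and every other library left out gave 0. DESeq2 called 2 members, where 2.15% of its 49727 rows were called. The rows tested were not limited to a mean of at least 1 TPM, as the members were. Nothing is therefore read from the members' shares.

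In the edgeR fit of the embryos, on which the choice of members bears directly, 18 members, 5 higher and 13 lower, passed an adjusted p of 0.05 for the mother's diet averaged over both kinds of father, where 0.197% of rows did. DESeq2 called 91 members, where it called 3.0% of rows. Leaving out 1 library gave 1 to 29 in edgeR, where 2 to 207 rows were called over all rows. The 29 came without replicate 2 of the embryos of 2 BaP-fed parents. With control fathers the count was 0 members, where 0.0% of rows passed, and 86 members had an unadjusted p under 0.05 in edgeR, beside 1291 of 30894 rows. DESeq2 called 7 members there and 0.179% of rows. With BaP-fed fathers 42 members passed, 22 higher and 20 lower, where 5.24% of rows did, and DESeq2 called 58 members and 6.14% of rows. That edgeR count was 21 and 23 without replicates 1 and 4 of the embryos of 2 BaP-fed parents, 22 and 20 without replicates 1 and 4 of the BaP-fed fathers, and 31 to 41 without any other library. These counts follow from the choice and nothing is read from them.

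In eggs no member passed the main test. Of 29023 rows tested in eggs, edgeR called 0, or 0.0%, and 1044 had an unadjusted p under 0.05; DESeq2 called 104 of 48413 rows, or 0.215%. Of the 100 members, 81 (58 higher, 23 lower) passed the filter on low counts and none of the 81 was called, while 4 had an unadjusted p under 0.05 and DESeq2 called 1. A further 4 members were listed at 0 in every egg library. On the TPM scale 55 members (55%) differed in the same direction in BaP eggs as in embryos of BaP-fed mothers and 41 in the opposite direction. That share was near the 56.2% of all eligible rows and the 59.3% of the 2991 other rows that met the conditions. For the higher members the count was 44 of 76 and for the lower ones 11 of 24. The median egg difference, signed by the embryo direction, was 0.03 for the members and 0.03 for the eligible rows. On TPM the eligible rows had a median egg difference of 0.035 when not signed by the embryo direction. By the edgeR fold change 47 of the 81 (58.0%) had the same direction, beside 54.4% of 19248 eligible rows tested. These were 32 of 58 higher members (55.2%) and 15 of 23 lower members (65.2%). Which of the 2 sets had the larger share thus depended on the scale and the rows counted, and nothing is read from the split. In 67 of 100 members the egg difference was under 0.2 in size, where 60.1% of the eligible rows were. The embryo difference of the members, by contrast, was at a median of 0.52 because they were chosen for it.

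**Figure D3:**
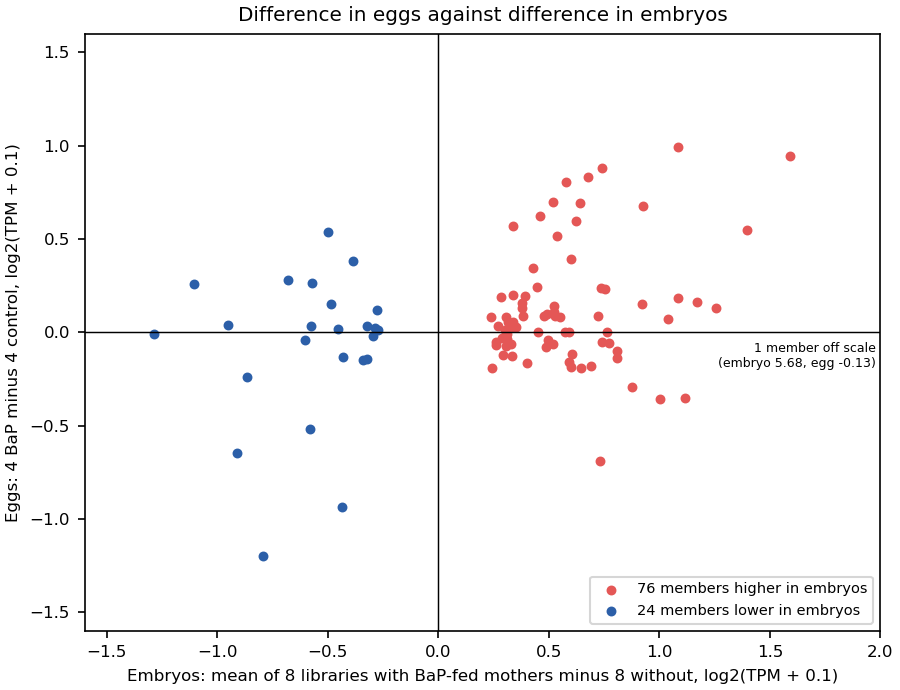
Each point is 1 of the 100 members, with the embryo difference, mean of 8 libraries with BaP-fed mothers minus 8 without, on the x axis and the egg difference, 4 BaP minus 4 control, on the y axis, both in log2(TPM + 0.1). Points lie on both sides of 0 on the egg axis in both colours, with 55 members on the same side as in embryos and 41 on the other; 1 member with an embryo difference of 5.68 is off the scale.

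The lowest p in eggs was that of ENSDART00000188647.1 (rank 75, 1737 bases), which was lower in both stages. In eggs it was 61.5, 50.3, 35.9 and 43.5 TPM in controls and 28.7, 20.6, 22.8 and 26.6 TPM with BaP, so that the groups did not overlap. Its log2 fold change was -1.002 ± 0.20 (SE), with an unadjusted p of 0.000959 and an adjusted p of 1.00 in edgeR. This was the member that DESeq2 called, and its adjusted p ranged from 0.00225 in DESeq2 to 1.00 over the alternatives. In embryos it was 41.5, 36.5, 45.2 and 44.6 TPM in controls and 47.5, 35.0, 49.3 and 41.3 TPM with BaP-fed fathers. It was 32.5, 37.3, 26.6 and 33.2 TPM with BaP-fed mothers and 37.6, 28.0, 24.9 and 33.1 TPM with both parents BaP-fed, and these libraries overlapped those of control mothers. The x difference in embryos was -0.38 with control fathers and -0.49 with BaP-fed fathers, smaller than the difference in eggs.

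Another 3 members were named by the smallest p in their direction in eggs. ENSDART00000130715.3 (rank 32, 893 bases) was 28.8, 29.1, 33.1 and 53.7 TPM in control eggs and 52.5, 59.8, 56.7 and 78.4 TPM in BaP eggs, and its ranges overlapped by 1 control library. Its log2 fold change in eggs was 0.74 ± 0.24 (SE, edgeR, unadjusted p = 0.0143, adjusted p = 1.00), and it was also higher in embryos of BaP-fed mothers. ENSDART00000078563.5 (rank 37, 1393 bases), higher in those embryos too, was 2.27, 2.39, 1.74 and 1.88 TPM in control eggs and 6.002, 4.49, 2.00 and 3.55 TPM in BaP eggs (0.92 ± 0.35, unadjusted p = 0.0309, adjusted p = 1.00). ENSDART00000182330.1 (rank 66, 9480 bases) went the other way. It was higher in embryos of BaP-fed mothers but lower in BaP eggs, at 0.0578, 0.0567, 0.0114 and 0.0115 TPM against 0.108, 0.0726, 0.183 and 0.104 TPM in controls (-1.78 ± 0.69, unadjusted p = 0.0308, adjusted p = 1.00). These are few reads, and no adjusted p in edgeR was under the threshold for any of the 4.

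Over all 100 members, tested in eggs or not, the 4 BaP and 4 control egg libraries did not overlap for 5, which is 5%. Among the eligible rows 2.57% showed it, and 2.73% of the rows tested in eggs. Of the 5, the members ranked 75 and 82 had the same direction in eggs as in embryos, and those ranked 24, 51 and 66 the opposite one. The rank 82 member (3576 bases) was 9.44 to 10.7 TPM in control eggs and 10.8 to 12.1 TPM in BaP eggs. The rank 24 member (1333 bases), higher in embryos of BaP-fed mothers, was 27.6 to 31.5 TPM in control eggs and 24.1 to 26.5 TPM in BaP eggs.

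Most members differed at least 2-fold between control eggs and control embryos. In embryos 47 members, 33 higher and 14 lower with BaP-fed mothers, were at least 2-fold above their egg level, which is 47% beside 36.4% of eligible rows. A further 33 members, 31 of them higher and 2 lower, were at least 2-fold above their embryo level in eggs, beside 30.2% of eligible rows. The other 20 members lay within 2-fold, beside 33.3%. The lower members leaned to the embryo, with a median embryo minus egg log2 difference of 1.39, while the higher members had a median of -0.02 and the eligible rows 0.10. Of the members, 66 had at least 1 TPM in eggs, beside 78.3% of eligible rows, and 14 (13 higher, 1 lower) had under 0.1 TPM, beside 5.87%. The control embryos were used in the choice of members, so these counts describe them.

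**Figure D4:**
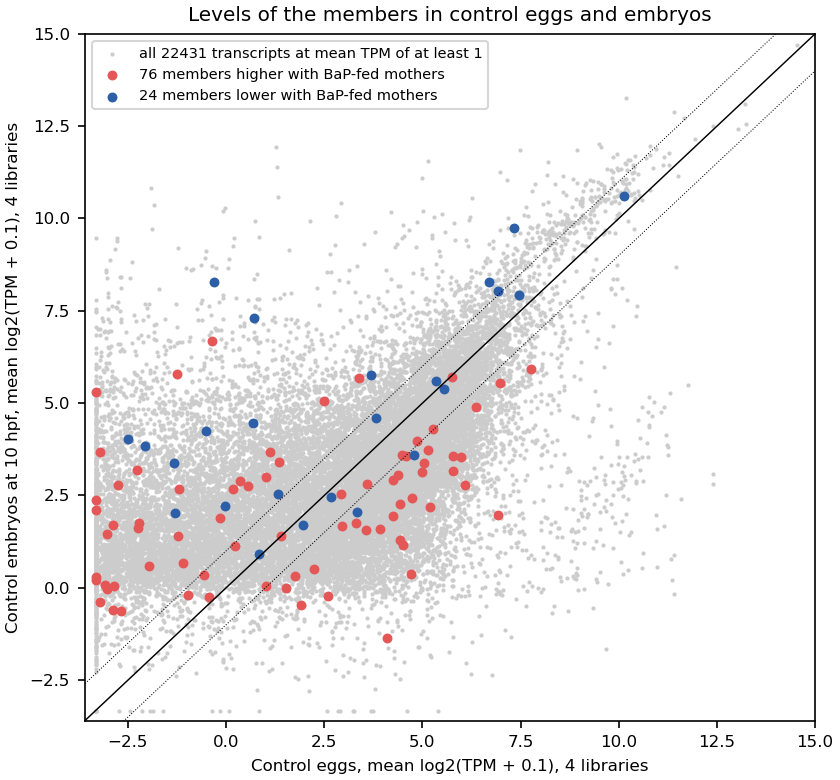
Mean log2(TPM + 0.1) of control eggs (x axis) and control embryos at 10 hpf (y axis), 4 libraries each, for all eligible transcripts (grey) and the members (red, 76 higher; blue, 24 lower). The solid line marks equal levels and the dotted lines a 2-fold difference; 47 members lie above the upper dotted line, 33 below the lower one and 20 between.

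The 31 higher members richer in eggs and the 33 higher members richer in embryos are described apart. Those richer in eggs had a median of 23.4 TPM in eggs and 5.59 TPM in embryos, a median length of 2325 bases and median x differences of 0.32 with control fathers and 0.45 with BaP-fed fathers. Those richer in embryos had a median of 0.153 TPM in eggs and 5.03 TPM in embryos, a median length of 1793 bases and median x differences of 0.55 and 0.89. In eggs, 20 of the 31 and 17 of the 33 lay in the direction of their embryo difference. The 4 higher members listed at 0 in every egg library have no direction in eggs and cannot be among the 31. The same count was not made over eligible rows of each kind, so the counts are not compared. Without replicate 2 of the embryos of 2 BaP-fed parents, the library with 1.57% of counts in egg-enriched transcripts, the difference with BaP-fed fathers was 0.51 for those richer in eggs and 0.89 for those richer in embryos, and all 64 kept a difference of at least 0.2. For the 24 lower members it was -0.48 without that library and -0.52 with it, and 22 of the 24 kept a size of at least 0.2. The rule run without that library chose 75 of the 100 members again.

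The median length of the members was 1856 bases, beside 1773 for eligible rows and 1284 for the other rows that met the conditions. The higher members had a median of 1916 bases and the lower members 1525. Transcripts over 5000 bases made up 6 members, all higher, beside 9.34% of eligible rows, and those under 1000 bases made up 16 members, beside 26.8%. Estimated counts were exactly whole in all 24 libraries, with no tolerance and with 0 taken as whole, for 25 members, beside 16.8% of eligible rows. The other 75 had a fractional count in at least 1 library. Salmon divides reads that match several transcripts by estimate, so a level can rest on that division.

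Within a cross, the members varied together only weakly. The mean pairwise Pearson correlation of x was taken after removing the cross means, over the 16 embryo libraries. It was 0.0661 among all 100 members, beside 0.0341 among all eligible rows and 0.0160 among the 2991 other rows that met the conditions. Within a direction it was 0.131 among the higher members and 0.152 among the lower members, while the other rows were not split by direction. The libraries share depth and composition, so these are descriptions.

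The make-up of the set rested partly on single libraries. When the rule was run again without each library in turn, 50 to 81 of the 100 members were chosen again, with 50 the count without replicate 2 of the controls. In all 16 runs 29 members were chosen, 22 higher and 7 lower, among them the 4 named first here and not ENSDART00000105140.4. Their median size of difference was 0.59, beside 0.52 for all 100.

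The left-out library also gave a measure of the members' levels that its own values had not chosen. For each library, the 100 members selected without it were counted as being on the side of BaP-fed mothers where its level was nearer to the mean of the remaining libraries of BaP-fed mothers than to that of the remaining others. That count was 84, 68, 76 and 79 in replicates 1 to 4 of the embryos of 2 BaP-fed parents and 60, 62, 49 and 66 with BaP-fed mothers alone. It was 24, 36, 25 and 15 with BaP-fed fathers and 53, 73, 24 and 52 in the controls. The father crosses were apart from the crosses of BaP-fed mothers in all 4 libraries, whereas 3 of the 4 control libraries had more than 50 members on the side of BaP-fed mothers. On the CPM scale, a setting chosen after seeing the data, the controls had 48, 51, 25 and 42, the fathers 21, 42, 26 and 10, the mothers 67, 65, 46 and 62 and both parents 84, 81, 63 and 79. The libraries in these runs share the rest of the samples, and no test was made.

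**Figure D5:**
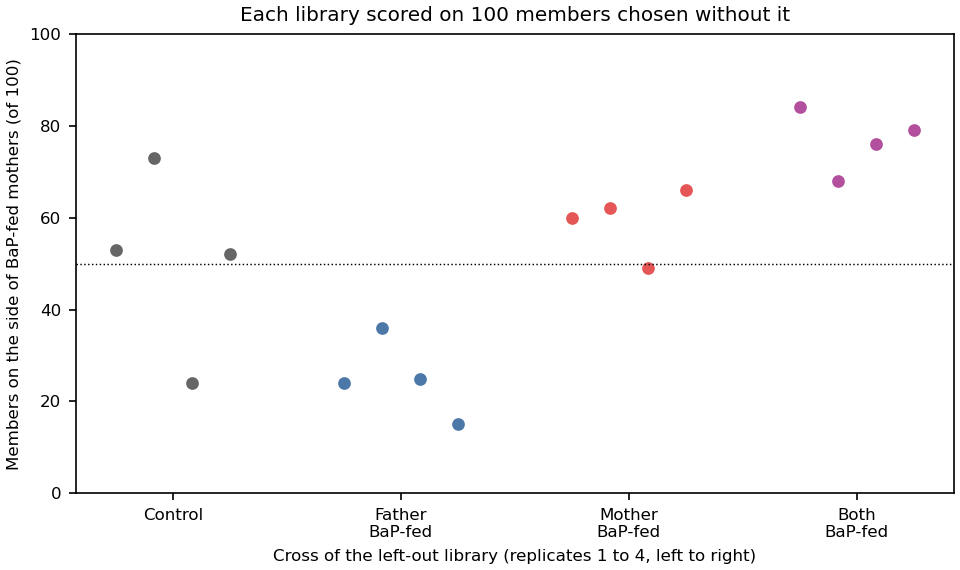
For each of the 16 embryo libraries (points, replicates 1 to 4 from left to right in each cross), the number of 100 members, chosen without that library, in which its level was on the side of BaP-fed mothers. The dotted line marks 50; father crosses lie between 15 and 36, both-parent crosses between 68 and 84, and control crosses between 24 and 73.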

How the data were processed

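Ribosome-depleted total RNA was sequenced as read pairs, per the labels' protocols. The submitters' processing notes name FastQC, Salmon, DESeq2 and the GRCz11 build, each with its version not given in the sources used here. The deposited tables hold, per the file headers, TPM and an estimated (expected) count beside the length and effective length of each of 57192 rows. Bisulfite samples (32) were left out.

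Members followed the rule above on the authors' TPM, with a pseudocount of 0.1. Rounded estimated counts went into edgeR 4.0.16 under R 4.3.3 with limma 3.58.1 (TMM, filterByExpr, robust glmQLFit, glmQLFTest). The SE given with an edgeR fold change was derived as the absolute log2 fold change divided by the square root of the F statistic. P-values were adjusted by Benjamini-Hochberg over all rows tested and called at 0.05. Eggs were fitted alone, and embryos in 1 fit with a mean per cross. Scripts were checked on simulated data. Alternatives were DESeq2 1.42.0, no filter on low counts, leaving out each library, a replicate block, and other pseudocounts, conditions, t statistics and scalings of the rule. Shares called by DESeq2 are over all rows with a count in the libraries fitted. Any row that it gave no adjusted p counts there as not called. Transcripts were named as the 2 members of highest and the 2 of lowest signed t, the 2 higher and the 2 lower in BaP eggs of smallest p, and ranks 100 and 101. Members and lists were chosen with earlier results of these data known. The reference tables matched 0 of the rows, so gene lists and stage markers could not be applied. TPM divides by the effective length that Salmon estimates in each library. Counts are not divided by it, though the division of shared reads can depend on it.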

Additional observations from a re-analysis of the deposited data

Results flagged for a closer look

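Groups of 4 libraries were searched for a library far from the other 3, by Dixon's gap-to-range ratio at its 95% critical value. The search covered the transcripts named for embryos or eggs and the median levels of the higher and of the lower members. ENSDART00000105140.4, named after its values were seen, was also included. In all, 66 groups were searched and 9 were found, all of them in transcripts. Chance marks about 1 in 20 groups where levels are normally distributed. A group with 3 libraries listed at 0 has a ratio of 1 whatever the level of the other library, so that rate does not apply to it. This was so for ENSDART00000105140.4 in the groups found and for ENSDART00000026635.7 in control eggs. The transcript listed at 0 in most libraries of control mothers, ENSDART00000105140.4, gave 23.8 TPM in control embryos replicate 1 and 25.5 TPM in replicate 2 of the BaP-fed fathers, where the other 3 libraries of each group were listed at 0. ENSDART00000026635.7 was 1.36 TPM in replicate 3 of the BaP-fed mothers, beside 1.54 to 1.55 TPM in the others, and 0.0365 TPM in replicate 3 of the control eggs, where the others were listed at 0. ENSDART00000135153.2 was 3.12 TPM in replicate 2 of the embryos of 2 BaP-fed parents, beside 3.52 to 3.58 TPM. ENSDART00000145652.3 was 2.83 TPM in replicate 2 of the BaP-fed mothers, beside 2.06 to 2.17 TPM. ENSDART00000130715.3 was 53.7 TPM in replicate 4 of the control eggs, beside 28.8 to 33.1 TPM. ENSDART00000182330.1 was 4.74 TPM in replicate 2 of the control embryos, beside 2.79 to 3.11 TPM, and 3.29 TPM in replicate 2 of the BaP-fed mothers, beside 5.10 to 5.36 TPM.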

How the results depend on the processing

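The egg count of 0 calls became 104 with DESeq2, of which 1 was a member, and 0 to 2 when 1 egg library was left out, with 2 without control eggs replicate 3 or 4 and 1 without BaP eggs replicate 4. With each egg library left out, 44 to 53 members had the same direction in eggs as in embryos. The 18 members called for the mother's diet became 9 without the filter on low counts, 5 with a replicate block and 91 with DESeq2. Over all rows tested, 61 of 30894 were called in the main fit and 15 of 49727 without the filter. The block gave 6 of 30894 and DESeq2 1494 of 49727. Leaving out 1 embryo library gave 1 to 29: 6, 9, 3 and 8 without control replicates 1 to 4, 1, 5, 2 and 4 without those of the BaP-fed mothers, 2 and 7 without replicates 1 and 4 of the BaP-fed fathers, and 4, 29 and 2 without replicates 1, 2 and 4 of both. Calls over all rows were 2 in the run with 1 member called and 207 in the run with 29. The rule used this contrast, so nothing about the members is read from these counts. The set shared 63 members with a selection on CPM, and 50 to 81 when 1 library was left out. A selection at a mean of at least 5 TPM shared 58, which are all the members that reach that mean. That filter leaves each t unchanged, so this count was fixed in advance and nothing is read from it. With a replicate block in eggs, 49 members had the same direction and no row (0) was called. Same-numbered deviations correlated at 0.011 to 0.161 in eggs and -0.105 to 0.157 in embryos. The best match in another group had the library's own number for 4 of 8 egg libraries and 6 of 16 embryo libraries. So few libraries cannot settle whether replicate numbers pair them. The adjusted p of ENSDART00000188647.1 in eggs ranged from 0.00225 to 1.00 over the alternatives. The cause of these changes was not tested. Depth limits the low transcripts.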
